A study of Mus musculus with 6 samples.

Results

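The transcription factor p53 and 32 further genes listed as its targets or regulators were followed in GC-1 spg cells. This mouse line derives from type B spermatogonia. The 33 genes were listed by name as p53, its regulators and its targets, with earlier results of these data known. All 33 were found by symbol among the 57180 rows of the deposited gene table. Of these, 28 held enough counts to be tested and 5 did not. Within the 28, Gadd45a and Plk2 were higher and Sesn1, Trp53inp1 and Zmat1 were lower in the libraries labelled as overexpressing SNHG1 (edgeR, adjusted p under 0.05).

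The comparison set 3 libraries against 3. Those labelled Ov_SNHG1 came from cells transfected for overexpression of SNHG1, a long non-coding RNA whose introns hold small nucleolar RNAs. Those labelled Vector came from cells given the control vector, and all were profiled 24 hours after transfection by poly(A)-selected, stranded mRNA sequencing. The labels of all 6 libraries also give non-obstructive azoospermia as a treatment, without saying what was done, and none states whether replicates were separate cultures. The spread behind each p-value is thus that among these libraries and may be technical. GC-1 spg cells were immortalised with the large T antigen of simian virus 40, a protein known to bind p53, which limits the line as a model of p53 function.

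Library totals were between 15521900 and 21095427 counts, and 1 count stood for 0.0474 to 0.0644 CPM, the count scaled to library size. The counted mouse gene Snhg1 did not separate the labels: it stood at 24.0, 26.4 and 25.3 CPM in the Ov_SNHG1 libraries and at 22.1, 25.9 and 20.9 CPM in the Vector libraries, with overlapping groups (edgeR, adjusted p = 0.52). The gene length implied by its counts and its deposited length-scaled values was 20719 bases, against a genomic span of 3011 bases. The sources used here do not say which SNHG1 sequence was transfected or whether its reads would be counted for this gene. The directions below are therefore those of the labels, and the groups are called the labelled and the vector libraries. Of 15 germ cell markers, 7 had no count in any library, namely Ddx4, Zbtb16, Sall4, Kit, Sohlh1, Nanos2 and Id4, and 2 were abundant enough to be tested. Together the germ cell markers held 5.55 to 6.32 CPM in the labelled and 5.29 to 6.34 CPM in the vector libraries. The 8 mesenchymal markers held 20100 to 21000 against 23830 to 25310 CPM, with Thy1 at 0. Most of this was Col1a2, at 13081 to 13275 against 15656 to 16512 CPM. Of 7 tested, 1 was called higher (Pdgfra) and 2 lower (Col1a2 and Col3a1) by edgeR, beside 2.4% of all tested genes called. The 8 Sertoli cell markers held 606 to 704 against 582 to 617 CPM (Wt1, Fshr and Cldn11 at 0). Most of that sum was Rhox5, at 535 to 642 against 511 to 550 CPM. The part of these markers in the results was not tested.

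In unstressed cells p53 is kept low by the ubiquitin ligase Mdm2 and its partner Mdm4. When DNA is damaged or growth signals are disturbed, p53 accumulates, binds DNA as a tetramer and raises genes for cell cycle arrest, DNA repair, metabolism and cell death. Mdm2 is itself a target, which closes a feedback loop. In the testis, p53 is known for its part in the removal of damaged germ cells. The consensus of its binding site is a pair of decamer half-sites, each of which reads the same on both strands.

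Promoter sequences are shown for p53 itself, for Mdm2 as the gene of the feedback loop, and for the changed members with an entry, because they show which of these start sites carry letters that match the p53 half-site. RefSeq promoter windows of build GRCm38.p6, from 250 bases before to 50 after a start site, were matched by symbol for 26 of the 33 genes, in 35 windows. Those without an entry were Pmaip1, Perp, Trp53inp1, Ddb2, Xpc, Rrm2b and Zmat3. Capitals mark each match to the p53 consensus decamer, and sequences run 5′ to 3′ on the gene's strand up to the base before the start site. The windows are chr11:69580256-69580358 (+ strand, shortened to leave out an annotated exon of the neighbour Wrap53), chr10:117710759-117711008 (- strand), chr6:67037408-67037657 (- strand), chr13:110394794-110395043 (+ strand), chr10:41887189-41887438 (+ strand, the second of its start sites) and chrX:135009210-135009459 (- strand).
Trp53: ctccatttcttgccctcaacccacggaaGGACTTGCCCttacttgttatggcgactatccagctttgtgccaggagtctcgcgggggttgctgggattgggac
Mdm2: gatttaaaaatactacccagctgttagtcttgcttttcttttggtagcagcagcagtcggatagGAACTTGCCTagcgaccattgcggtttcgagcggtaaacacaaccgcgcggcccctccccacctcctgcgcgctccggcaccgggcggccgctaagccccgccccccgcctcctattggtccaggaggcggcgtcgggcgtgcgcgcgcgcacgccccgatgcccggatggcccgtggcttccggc
Gadd45a: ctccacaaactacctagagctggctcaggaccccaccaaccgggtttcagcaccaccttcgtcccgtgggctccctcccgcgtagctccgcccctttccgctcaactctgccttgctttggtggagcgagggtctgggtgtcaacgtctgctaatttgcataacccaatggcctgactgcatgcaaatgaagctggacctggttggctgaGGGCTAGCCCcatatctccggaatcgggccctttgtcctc
Plk2: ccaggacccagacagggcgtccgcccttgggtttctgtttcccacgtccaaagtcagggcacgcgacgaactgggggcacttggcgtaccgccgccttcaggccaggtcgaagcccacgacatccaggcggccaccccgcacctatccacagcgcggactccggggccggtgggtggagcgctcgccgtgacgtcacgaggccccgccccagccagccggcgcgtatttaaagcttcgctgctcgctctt
Sesn1: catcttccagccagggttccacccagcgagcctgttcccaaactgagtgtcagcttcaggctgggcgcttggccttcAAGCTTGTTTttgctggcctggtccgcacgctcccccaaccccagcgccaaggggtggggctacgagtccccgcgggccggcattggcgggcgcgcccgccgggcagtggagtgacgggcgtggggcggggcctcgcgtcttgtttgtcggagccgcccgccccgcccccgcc
Zmat1: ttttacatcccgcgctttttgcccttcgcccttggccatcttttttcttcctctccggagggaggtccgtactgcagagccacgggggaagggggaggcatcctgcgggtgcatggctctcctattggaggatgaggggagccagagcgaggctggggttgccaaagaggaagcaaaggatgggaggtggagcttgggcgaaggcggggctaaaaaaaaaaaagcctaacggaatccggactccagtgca

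The decamer was present in 13 of the 35 member windows (37.1%) and in 2745 of all 32851 windows (8.36%). By gene, 12 of 26 members (46.2%) had it in at least 1 window, against 2582 of 27025 genes (9.55%). A pair of decamers separated by 0 to 13 bases was found in 0 of the 35 windows and in 24 of all windows (0.0731%). The members with a decamer were Trp53, Mdm2, Ccng1, Gadd45a, Gtse1, Bax, Ei24, Aen, Polk, Rps27l, Sesn1 and Ddit4l. It occurred 40 bases before the start site of Gadd45a, which rose, and 173 bases before the second start site of Sesn1, which fell. The windows of Plk2 and Zmat1 and the first window of Sesn1 held none. Because the members were listed as p53, its regulators and its targets, the shares above do not test the list. Matching letters are a description of these windows and do not show binding, and sites outside the windows were not searched.

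The comparison asks which genes differ in level between the libraries labelled Ov_SNHG1 and Vector, and for the p53 genes the differences went both ways: of 28 tested members, 2 rose and 3 fell (edgeR, adjusted p under 0.05). Over all 14605 tested genes 2.4% were called, 1.54% higher and 0.856% lower, and among the 10005 genes of at least 10 CPM the share was 3.07% (1.98% higher and 1.09% lower). Of the 27 members at that level 4 were called. In bulk RNA, fewer cells of a type and less RNA per cell cannot be told apart. The median log2 fold change of the 28 members was 0.06, with 15 above and 13 below 0, beside 0.01 over all tested genes. Single libraries moved the members' median: it was 0.017, 0.044 and -0.009 without Ov_SNHG1 replicates 1, 2 and 3, and 0.08, 0.018 and 0.03 without Vector replicates 1, 2 and 3. The median size of the change regardless of direction was 0.20 for the members and 0.13 for all tested genes, on the log2 scale. An unadjusted p under 0.05 was reached by 13 members, 46.4%, and by 17% of all tested genes. Because the members were chosen with earlier results of these data known, these shares do not test the list. Library by library, the median of the 28 members relative to the vector mean lay between -0.02 and 0.03 on the log2 scale.

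How many members were called depended on the test and on single libraries. DESeq2 called 10 members where it called 5.4% of its tested genes, and limma-voom called 4 where it called 2.38%. Other size factors, library totals and a filter of 1 CPM each kept the same 5 members, with 2.4%, 2.42% and 2.71% of all genes called. No filter left 3 members (1.02% of all genes), removal of library trends in GC content and transcript length also 3 (2.79%), and a term for the replicate number 0 (1.12%). Without Ov_SNHG1 replicate 1, 9 members passed and 5.42% of all genes. Without Ov_SNHG1 replicates 2 and 3 the members called were 0 and 2, with 1.09% and 1.18% of all genes. Without Vector replicates 1, 2 and 3 they were 0, 1 and 1, with 0.828%, 1.01% and 0.957%. In the fits that called 0, members under an unadjusted p of 0.05 numbered 13 with the replicate term (15% of all genes), 12 without Ov_SNHG1 replicate 2 (11.9%) and 12 without Vector replicate 1 (13.6%).

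**Figure D1:**
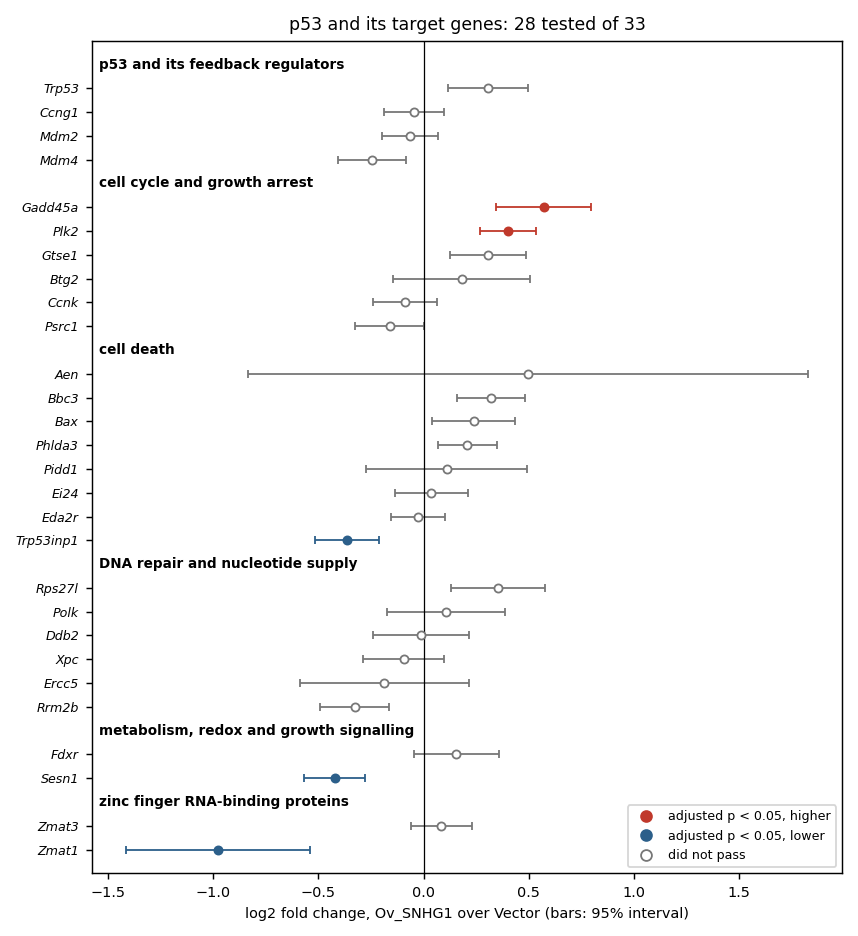
Log2 fold change of each of the 28 tested members (x axis, labelled over vector libraries), grouped by role, with 95% intervals as bars. Filled symbols passed the edgeR test at an adjusted p of 0.05: Gadd45a and Plk2 lie to the right of 0, and Sesn1, Trp53inp1 and Zmat1 to the left.

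p53 and its feedback regulators did not pass the test. Trp53 (ENSMUSG00000059552, chromosome 11, 69471185 to 69482699 in the deposited table, which names no build) stood at 171, 185 and 166 CPM in the labelled libraries and at 155, 127 and 139 CPM in the vector libraries. Every labelled library lay above every vector library, at a log2 fold change of 0.31 ± 0.08 (SE, n = 3 per group), and the adjusted p of edgeR was 0.114. DESeq2 did call it (adjusted p = 0.0253), and the alternatives ran from 0.0253 to 0.319. Reads of the processed pseudogene Trp53-ps could be shared with Trp53, and the sources used here do not say how the counting treated them.

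Mdm2, the ligase that marks p53 for degradation, stood at 112, 106 and 114 CPM in the labelled and 112, 121 and 114 CPM in the vector libraries. The groups overlapped, and the log2 fold change of -0.06 had a 95% interval of -0.198 to 0.070 (edgeR, adjusted p = 0.605). Mdm4, which binds and restrains p53, stood at 111, 97.7 and 107 against 120.2, 133 and 122 CPM. All labelled libraries were below all vector libraries, at -0.25 ± 0.07 (log2, SE), and the gene did not pass (edgeR, adjusted p = 0.13). With GC and length trends removed Mdm4 was at -0.15 (adjusted p = 0.259). Cyclin G1, Ccng1, a target that feeds back on Mdm2, stood at 309, 342 and 318 against 347, 336 and 317 CPM, with overlapping groups (log2 fold change -0.05 ± 0.06, SE). Of these 4 genes edgeR and limma-voom called 0 and DESeq2 called 1, beside 2.4%, 2.38% and 5.4% of all genes they tested. In edgeR 2 of the 4 were under 0.05 before adjustment, beside 17% of all tested genes.

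Among 6 genes of cell cycle and growth arrest, 2 rose, beside 1.54% of all tested genes called higher. Gadd45a (ENSMUSG00000036390, chromosome 6, 67012080 to 67014441), a stress sensor that inhibits the mitotic kinase complex, stood at 19.99, 21.7 and 21.6 CPM in the labelled libraries and at 12.9, 14.8 and 14.98 CPM in the vector libraries. The groups were well apart, and the gene rose 1.48-fold, by a log2 fold change of 0.57 ± 0.10 (SE, 3 libraries per group; edgeR, adjusted p = 0.0241). The call held without Ov_SNHG1 replicate 1 (adjusted p = 0.0252). It was lost without Ov_SNHG1 replicate 2 or 3 (0.0993 and 0.0865) and without Vector replicate 1, 2 or 3 (0.0922, 0.0751 and 0.0736), with a log2 fold change of 0.50 to 0.61. An antisense long non-coding gene, E230016M11Rik, overlaps exons of Gadd45a and stood at 1.41 to 2.52 CPM. Because the sources used here do not give the strand setting of the counting, reads of the pair cannot be told apart.

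Plk2 (ENSMUSG00000021701, chromosome 13, 110531580 to 110537378), a polo-like kinase of centriole duplication and the stress response, stood at 283, 297 and 310.1 CPM against 224, 232 and 218 CPM. Its replicates were tight and the groups did not overlap. Plk2 rose 1.32-fold, by 0.40 ± 0.06 on the log2 scale (SE; edgeR, adjusted p = 0.0129). Without Ov_SNHG1 replicate 2, Vector replicate 1 or Vector replicate 3 the adjusted p was 0.0511, 0.0692 and 0.069, and without each other library it stayed at or under 0.0496.

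The other 4 genes of this group did not pass. Gtse1, a microtubule-binding protein of the G2 phase that restrains p53, stood at 62.7, 69.2 and 59.8 against 54.2, 48.2 and 52.8 CPM, all labelled libraries above all vector libraries (log2 fold change 0.30 ± 0.08, SE; edgeR, adjusted p = 0.1). The mitotic spindle gene Psrc1 and the cyclin gene Ccnk had values of -0.16 ± 0.07 and -0.09 ± 0.07, and the antiproliferative gene Btg2 had 0.18 ± 0.14 (log2, SE). Gtse1 and Psrc1 are also genes of dividing cells, so 20 other genes of G2 and mitosis were read beside them. These together held 2400 to 2753 CPM in the labelled and 2448 to 2660 CPM in the vector libraries. Among the 20, edgeR, DESeq2 and limma-voom called 0, beside 2.4%, 5.4% and 2.38% of all genes they tested. In edgeR 2 of the 20 had an unadjusted p under 0.05, beside 17% of all tested genes.

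**Figure D2:**
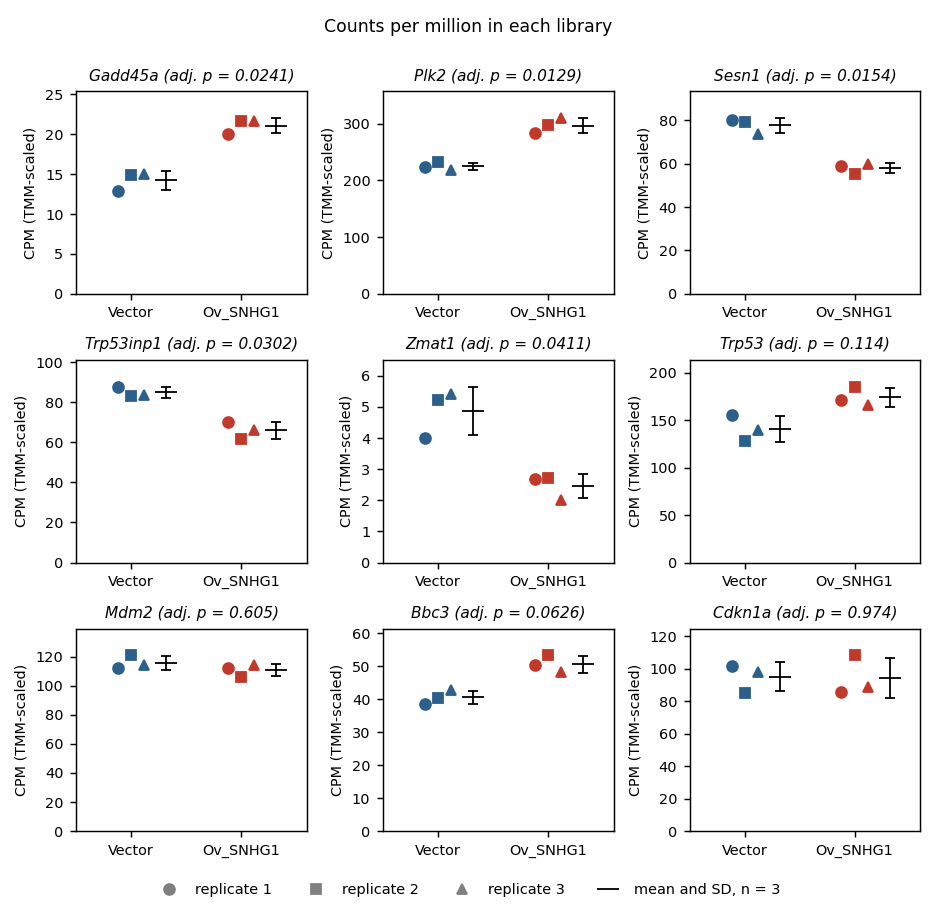
CPM scaled by TMM factors (y axis, from 0) in each library for the 5 called members, Trp53, Mdm2, Bbc3 and the cell cycle inhibitor Cdkn1a, with the mean and SD of 3 libraries beside the points. The groups are apart in the 5 called members, in Trp53 and in Bbc3, and overlap in Mdm2 and Cdkn1a.

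Of 10 genes of cell death, 8 were tested and 1 fell, beside 0.856% of all tested genes called lower. Trp53inp1 (ENSMUSG00000028211, chromosome 4, 11156431 to 11174379), a p53-induced nuclear protein of autophagy and apoptosis, stood at 70.03, 61.6 and 66.4 CPM in the labelled and 87.9, 83.1 and 83.8 CPM in the vector libraries. No labelled library reached the lowest vector library, and Trp53inp1 fell by 0.36 ± 0.07 on the log2 scale (SE; edgeR, adjusted p = 0.0302). The call held without Ov_SNHG1 replicate 1 (0.0202) and was lost without any other single library (Ov_SNHG1 replicates 2 and 3, 0.111 and 0.102; Vector replicates 1, 2 and 3, 0.119, 0.0862 and 0.0962). With library trends in GC content and transcript length removed the difference was -0.22 and did not pass (adjusted p = 0.0978). The longest annotated transcript of Trp53inp1 has 38.8% GC, the lowest among the tested members.

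The genes that open the mitochondrial path to apoptosis did not pass. Bbc3, which encodes the BH3-only protein PUMA, stood at 50.3, 53.4 and 48.3 CPM against 38.6, 40.3 and 42.7 CPM. Its groups did not overlap, at a log2 fold change of 0.32 ± 0.07 (SE; edgeR, adjusted p = 0.0626), and DESeq2 called it (adjusted p = 0.0181, with the alternatives between 0.0181 and 0.225). The pore-forming protein gene Bax had 0.24 ± 0.09 (log2, SE; edgeR, adjusted p = 0.212), with 101, 124 and 123 CPM in the labelled libraries against 94.9, 98.9 and 101 CPM. Only Ov_SNHG1 replicate 1 lay within the range of the vector libraries.

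Phlda3, an inhibitor of the kinase Akt, stood at 193, 216 and 207 against 176, 173 and 184 CPM (log2 fold change 0.21 ± 0.06, SE; edgeR, adjusted p = 0.143), and passed without Ov_SNHG1 replicate 1 (0.0492). With GC and length trends removed Phlda3 was at 0.107 (adjusted p = 0.315). Aen, a nuclease of apoptosis, took very different levels within each group, at 34.3, 39.5 and 138 CPM in the labelled and 35.7, 83.8 and 31.2 CPM in the vector libraries. Ov_SNHG1 replicate 3 was 4.02-fold above the lowest library of its group and Vector replicate 2 was 2.69-fold above the lowest of its own. The log2 fold change of Aen was 0.50 ± 0.58 (SE), and it was -0.43 without Ov_SNHG1 replicate 3. Aen was the only tested member with a range above 2-fold within a group, 3.57% of the members, beside 10.7% of all tested genes. At 10 CPM or more the shares were 3.7% of 27 members and 2.2% of genes. The caspase-activating platform gene Pidd1, the endoplasmic reticulum gene Ei24 and the death receptor gene Eda2r had log2 fold changes of 0.11 ± 0.17, 0.04 ± 0.08 and -0.03 ± 0.06 (SE), with overlapping groups.

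No gene of DNA repair and nucleotide supply was called by edgeR or limma-voom. Of the 6 tested, 2 reached an unadjusted p under 0.05 in edgeR, beside 17% of all tested genes. DESeq2 called 2, beside 5.4% of its tested genes. Rrm2b, the p53-induced small subunit of ribonucleotide reductase, stood at 32.2, 29.9 and 30.3 CPM in the labelled and 39.3, 40.1 and 36.4 CPM in the vector libraries. All labelled libraries were lower, at -0.33 ± 0.07 (log2, SE; edgeR, adjusted p = 0.0623), and Rrm2b passed with DESeq2 (0.0331) and without Ov_SNHG1 replicate 1 (0.0451). With GC and length trends removed it was at -0.20 (0.128). Rps27l, a ribosomal protein paralogue induced by p53, stood at 82.4, 99.1 and 102 against 67.4, 77.3 and 77.4 CPM, all labelled libraries higher, at 0.35 ± 0.10 (edgeR, adjusted p = 0.118). It too passed with DESeq2 and without Ov_SNHG1 replicate 1 (0.0198 was the lowest adjusted p over the alternatives, and 0.315 the highest). Rps27l has near-identical relatives, Rps27 and Rps27rt, and its value is uncertain where reads were shared among them.

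The nucleotide excision repair nuclease gene Ercc5 stood at 26.9, 19.2 and 29.3 against 30.6, 31.8 and 23.4 CPM, with overlapping groups (log2 fold change -0.19 ± 0.17, SE). Single libraries moved Ercc5 between -0.32 without Vector replicate 3 and -0.025 without Ov_SNHG1 replicate 2, and it was -0.31 without Ov_SNHG1 replicate 3. The damage recognition genes Xpc and Ddb2 had -0.09 ± 0.08 and -0.01 ± 0.10, and the translesion polymerase gene Polk had 0.11 ± 0.12. In each of these 4 genes the labelled and vector libraries overlapped. Exons of Ddb2, at 11.7 to 12.9 CPM, overlap those of the opposite-strand gene Acp2, at 56.8 to 69.4 CPM over the 6 libraries. As with Gadd45a, reads of this pair cannot be told apart without the strand setting. Exons of 7 of the 33 members overlap those of another gene.

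Of 5 genes of metabolism and growth signalling, 2 were tested and 1 fell, beside 0.856% of all tested genes called lower. Sesn1 (ENSMUSG00000038332, chromosome 10, 41685931 to 41784420), a sestrin that restrains mTORC1 and oxidative stress, stood at 59.1, 55.2 and 59.8 CPM in the labelled and 80.2, 79.2 and 73.9 CPM in the vector libraries. The gap between the groups was wider than the range within either, and Sesn1 fell by 0.42 ± 0.06 on the log2 scale (SE; edgeR, adjusted p = 0.0154). The adjusted p was 0.0653, 0.0704 and 0.0678 without Ov_SNHG1 replicate 2, Vector replicate 1 and Vector replicate 2, and the call held without each of the other 3 libraries. Of the other metabolic members only Fdxr, the mitochondrial ferredoxin reductase, was tested, at 0.16 ± 0.09 (log2, SE; edgeR, adjusted p = 0.403).

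Zmat1 and Zmat3 encode zinc finger proteins of the matrin type, and Zmat3 is a known p53 target that binds RNA. Zmat1 was listed beside Zmat3, and no such standing is claimed for it here. Zmat1 (ENSMUSG00000052676, chromosome X, 133872121 to 133909958) stood at 2.67, 2.71 and 2.02 CPM in the labelled and 4.00, 5.23 and 5.43 CPM in the vector libraries, from 39 to 100 counts per library. It was the least abundant tested member, its groups did not overlap, and it fell by 0.98 ± 0.19 on the log2 scale (SE; edgeR, adjusted p = 0.0411). The call held without Ov_SNHG1 replicate 1 (0.0476) and was lost without any other single library (Ov_SNHG1 replicates 2 and 3, 0.107 and 0.118; Vector replicates 1, 2 and 3, 0.0628, 0.149 and 0.149). It was also lost with limma-voom (0.0572), with no filter (0.0622) and with GC and length trends removed (0.056). Zmat3 did not pass, at 0.08 ± 0.06 (log2, SE; edgeR, adjusted p = 0.525).

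**Figure D3:**
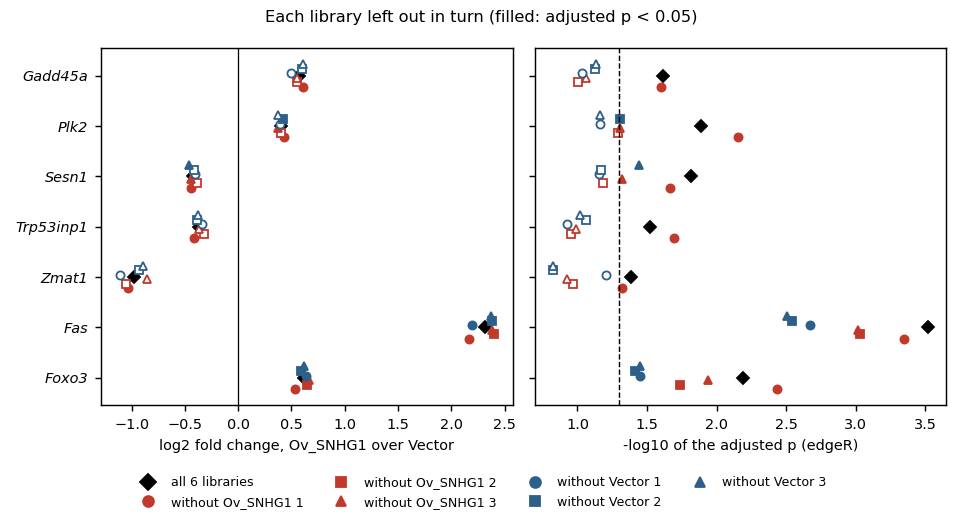
Log2 fold change (left) and -log10 of the edgeR adjusted p (right, dashed line at 0.05) with all 6 libraries (black) and with each library left out, for the 5 called members and for Fas and Foxo3. Fold changes stay on their side of 0, whereas the 5 members cross the dashed line when single libraries are removed and Fas and Foxo3 do not.

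Across the 28 members, the groups did not overlap in 14, 50% of them, beside 23.7% of all tested genes and 26.6% of those of at least 10 CPM. Higher in every labelled library were Trp53, Gadd45a, Plk2, Gtse1, Bbc3, Phlda3 and Rps27l. Lower in every labelled library were Mdm4, Psrc1, Ccnk, Trp53inp1, Rrm2b, Sesn1 and Zmat1. Both sets of 7 span several roles, and the background shares of all tested genes were 11.4% higher and 12.3% lower. The choice of members with earlier results known limits this comparison too.

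**Figure D4:**
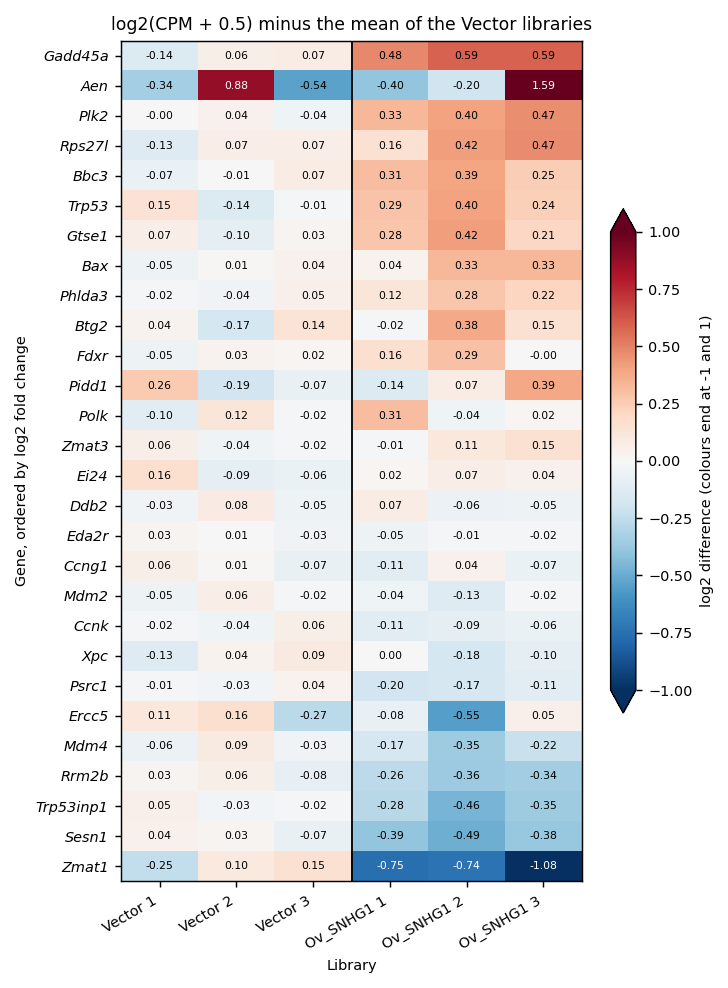
Difference of log2(CPM + 0.5) from the mean of the vector libraries for each tested member (rows, ordered by log2 fold change) in each library (columns). The 14 members whose groups do not overlap have one sign in all 3 labelled libraries, whereas Aen changes sign within both groups and reaches 0.88 in Vector 2 and 1.59 in Ov_SNHG1 3.

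Transcript composition moved with these values, and its part in them was not tested beyond the alternative given here. Across the 28 members the log2 fold change was higher at higher transcript GC (Spearman rho 0.471) and lower for longer transcripts (rho -0.51), and over 14235 tested genes with an annotated transcript rho was 0.294 and -0.205. With the library trends removed, rho was 0.293 and -0.342 over the members and -0.004 and 0.021 over all these genes. These are correlations across genes of the same libraries, which are not independent replicates. In the fit without these trends 3 members were called, Gadd45a and Plk2 higher (0.51 and 0.40) and Sesn1 lower (-0.43, log2).

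The remaining 5 members had too few counts to be tested. Pmaip1, which encodes the BH3-only protein NOXA, the membrane protein gene Perp and the mTORC1 inhibitor gene Ddit4l had 0 counts in all 6 libraries. A count of 0 allows up to 3 counts, or 0.142 to 0.193 CPM per library, for counting error only. The glycolysis regulator Tigar had 7 counts in all, 4 in Ov_SNHG1 replicate 3 and 3 in Vector replicate 2, and the lipid transfer protein gene Pltp had 19. Differences in these 5 genes within such low levels were not detectable at this depth.

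On the deposited scale per length, in FPKM (fragments per kilobase of gene length, scaled to library size), Phlda3, Ccng1 and Rps27l were the most abundant members. Phlda3 had 86.4 to 108 FPKM over the 6 libraries, above Ccng1 at 71.4 to 79.9 FPKM in every library. Rps27l (35.3 to 54.1 FPKM), Bax (36.6 to 48.0) and Plk2 (29.6 to 42.2) overlapped in their ranges. Trp53 followed at 17.9 to 26.1 FPKM, Sesn1 at 13.6 to 19.7, Mdm2 at 10.8 to 12.3, Trp53inp1 at 8.56 to 12.2 and Gadd45a at 3.09 to 5.23, and Zmat1 had 0.174 to 0.463. The gene length implied by counts and FPKM was 1 to 4.23 times that of the longest annotated transcript among the 30 members with counts, and it exceeded the genomic span for Gadd45a, Plk2, Psrc1 and Pidd1. Because that ratio differs between members, the order above is that of the deposited values and may change with other lengths.

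Another 53 genes of the pathway were read from the same fit, and 46 of them were tested. They were listed by their place in the pathway, again with earlier results of these data known. Among them 4 rose and 1 fell, so that 10.9% were called, beside 2.4% of all tested genes. Their median was 0.07 (log2), beside 0.01 over all tested genes. The groups did not overlap in 9 of the 46, 19.6%, beside 23.7% of all tested genes. None of the 18 tested upstream kinases, modifiers and cofactors was called by edgeR or limma-voom. DESeq2 called 1, beside 5.4% of its tested genes. That gene was also under 0.05 before adjustment in edgeR, as were 17% of all tested genes. The damage kinases Atm and Atr had log2 fold changes of -0.02 ± 0.06 and -0.01 ± 0.06, and the p53 kinase Hipk2, which DESeq2 called, had 0.27 ± 0.06 (SE; edgeR, adjusted p = 0.0592). Cdkn2a, whose product p19Arf restrains Mdm2, had 0 counts in every library.

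The best known targets of the wider list had unlike values. Cdkn1a, the p21 inhibitor of cyclin-dependent kinases, stood at 85.8, 108 and 88.8 CPM in the labelled and 102, 84.7 and 98.1 CPM in the vector libraries, with overlapping groups. Its log2 fold change was -0.01 with a 95% interval of -0.252 to 0.234 (edgeR, adjusted p = 0.974). The death receptor gene Fas stood at 45.2, 33.2 and 34.3 against 6.24, 8.26 and 8.14 CPM and rose 4.99-fold, by 2.32 ± 0.16 on the log2 scale (SE; edgeR, adjusted p = 0.000304).

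The remaining called genes of this wider list were Foxo3, Dram1, Dcxr and Thbs1. Foxo3, a forkhead transcription factor, stood at 217, 187 and 183 CPM against 131, 123 and 128 CPM and rose by 0.62 ± 0.08 (log2, SE; edgeR, adjusted p = 0.00647). Fas and Foxo3 were called in all 14 alternatives. Dram1, an autophagy gene, stood at 18.1, 20.5 and 22.1 against 12.9, 14.2 and 13.5 CPM and rose by 0.58 ± 0.10 (edgeR, adjusted p = 0.0294). Dcxr, the dicarbonyl and xylulose reductase, stood at 15.4, 17.6 and 22.0 against 9.67, 10.2 and 12.2 CPM and rose by 0.78 ± 0.15 (edgeR, adjusted p = 0.0444). Both lost their call without any single library other than Ov_SNHG1 replicate 1: without Ov_SNHG1 replicates 2 and 3 and Vector replicates 1, 2 and 3 the adjusted p was 0.108, 0.0967, 0.125, 0.0862 and 0.119 for Dram1 and 0.118, 0.108, 0.161, 0.164 and 0.0829 for Dcxr. Dram1 was also lost with the replicate block (0.0741), and Dcxr with no filter (0.0539) and with limma-voom (0.0522). Thbs1, the matrix glycoprotein thrombospondin, stood at 4.32, 3.61 and 3.58 against 11.8, 7.68 and 8.36 CPM and fell by 1.28 ± 0.19 (edgeR, adjusted p = 0.0154), a call lost without Ov_SNHG1 replicate 2 or 3 (0.0661 and 0.0595). Like Aen, Sesn3 was high in Ov_SNHG1 replicate 3, at 38.8, 35.7 and 143 CPM in the labelled libraries. Its vector libraries were close together, at 41.3, 40.5 and 40.98 CPM, unlike those of Aen. Sesn3 was named after its values were seen.

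**Figure D5:**
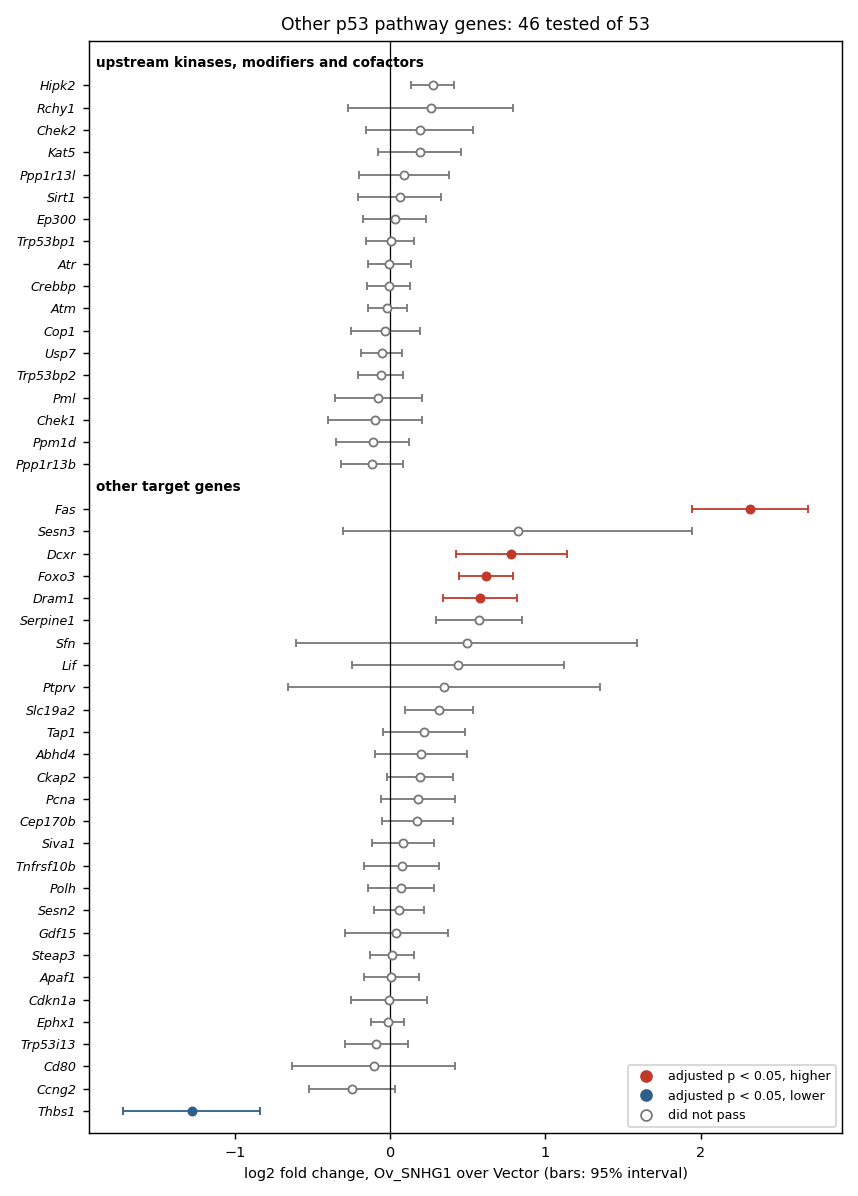
Log2 fold change of 46 tested further genes of the pathway (x axis, labelled over vector libraries), with 95% intervals as bars and filled symbols for an adjusted p under 0.05. Fas lies far to the right of the others, Dcxr, Foxo3 and Dram1 between 0.58 and 0.78, Thbs1 to the left, and Cdkn1a at -0.01.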

How the data were processed

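RNA from 6 libraries of GC-1 spg cells, 3 per group, was summarised in 1 deposited table of whole-number counts and FPKM values per gene. StringTie, HISAT2 and SAMtools 1.3.1 are named in the submitters' processing notes with the human build GRCh38, whereas the rows carry mouse identifiers. How reads were counted, with which strand setting, and on which build the coordinates lie are points not stated in these sources. FPKM values are those the authors deposited. Libraries were assigned to groups by their titles.

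The deposited counts were tested in edgeR 4.0.16 (R 4.3.3) by its quasi-likelihood F test, on genes kept by filterByExpr at its defaults, with TMM factors, a single term for group and p-values adjusted by Benjamini-Hochberg over 14605 genes. The 525 rows without a symbol stayed in the fit as named by their identifiers. CPM values were scaled by TMM factors of 0.9961 to 1.0046. DESeq2 1.42.0, limma-voom (limma 3.58.1) and other settings were alternatives, and the pipeline was tested on simulated data. GC content and length came from the longest GENCODE M21 transcript. Named genes were Trp53, Mdm2, Mdm4, called members, the 3 highest and 3 lowest members that did not pass, the 3 with the highest FPKM, Cdkn1a, Fas and called genes of the wider list, and other names were chosen after their values were seen. A list of blood cell markers is not reported here. The members and lists were chosen with earlier results of these data known.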

Additional observations from a re-analysis of the deposited data

How the results depend on the processing

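The alternatives were DESeq2, limma-voom, other size factors, library totals, a filter of 1 CPM or none, a replicate block and each library left out. Removal of GC and length trends was added after seeing the data. Against 350 genes, DESeq2 called 690, and 123 to 807 were called with 1 library left out, 807 without Ov_SNHG1 replicate 1. Against 5 members, 3 were called with no filter, 10 with DESeq2 (the first 5 with Trp53, Bbc3, Gtse1, Rps27l and Rrm2b) and 3 with GC and length trends removed. With 1 library left out, 0 to 9 members were called: 9 without Ov_SNHG1 replicate 1, 2 without replicate 3 of that group, 1 each without Vector replicates 2 and 3, and 0 without Ov_SNHG1 replicate 2 or Vector replicate 1, where 12 members each had an unadjusted p under 0.05. Fewer libraries remain in those fits. Against 5 genes of the wider list, 2 to 6 were called with 1 library left out. With the replicate number as a block, 163 genes and 0 members were called, and 13 members had an unadjusted p under 0.05. Same-numbered libraries did not deviate together from their group means (correlations of 0.022, -0.04 and -0.019), and not every library correlated best with its own number, so the numbers were not taken as pairs. The 5 called members kept their direction in all 14 alternatives. Signs changed for Aen (-0.434 without Ov_SNHG1 replicate 3, against 1.072 without Vector replicate 2), Ccng1 (0.052 with trends removed) and Cdkn1a (0.00043 with no filter, -0.121 to 0.053 with 1 library left out). The causes were not tested.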

Other observations

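Relatives of the 5 called members, taken by symbol, were read from the same fit after the calls were known. Gadd45b, a stress sensor of the same family as Gadd45a, stood at 32.2, 32.8 and 38.4 CPM in the labelled libraries and at 26.3, 24.4 and 29.9 CPM in the vector libraries. All labelled libraries were higher, at a log2 fold change of 0.36 ± 0.10 (SE, n = 3 per group), and the gene did not pass (edgeR, adjusted p = 0.141). The third member, Gadd45g, overlapped between the groups at 0.01 ± 0.11. The polo-like kinase genes Plk1, Plk3 and Plk4 had 0.20 ± 0.08, 0.35 ± 0.16 and 0.12 ± 0.08 (log2, SE), and none passed. Among the sestrins, Sesn2 had 0.06 ± 0.07 and Sesn3 0.82 ± 0.49 (log2, SE). Sesn3 was high in Ov_SNHG1 replicate 3 alone, and without that library it was at -0.13 ± 0.08 (edgeR, adjusted p = 0.511). Trp53inp2 had -0.03 ± 0.10. Whether the called members differ from their relatives was not tested.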
